A study of Mus musculus with 8 samples.

Results

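The Polycomb genes described here are 9 of the 32285 genes in the count table: Ezh1, Ezh2, Eed, Suz12 and Jarid2 of Polycomb repressive complex 2 (PRC2), and Bmi1, Ring1, Rnf2 and Cbx2 of Polycomb repressive complex 1 (PRC1). They were taken by gene symbol from a fixed list of complex subunits, not by their values, and each symbol matched 1 row. Brain of newborn C57BL/6 mice was profiled by mRNA sequencing in 8 libraries. The 4 ICSI-F2 libraries came from male pups whose fathers had been conceived by intracytoplasmic sperm injection (ICSI, the placing of a sperm inside the egg) and then bred naturally. The 4 control libraries came from pups of wild-type parents bred naturally, with sex not stated in the labels. Reads of the Y-linked gene Uty were present in all 4 controls, at 594 to 757 counts, as in the ICSI-F2 libraries, at 598 to 698. The 4 control libraries thus held RNA of male pups. No group carries a transgene or a deletion according to the labels, the exact age and the number of litters are not given, and nothing says that the libraries of a group came from separate litters, so each p-value speaks of the spread among these 8 libraries, which may be technical. The comparison asks whether transcription in the newborn brain differs in the generation after the ICSI-conceived one.

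PRC2 places a repressive methyl mark on histone H3 through its catalytic subunit, EZH1 or EZH2, which works only together with EED and SUZ12. Canonical PRC1 reads that mark through a CBX protein and adds ubiquitin to histone H2A through RING1 or RNF2 paired with a PCGF protein such as BMI1. In the mouse brain EZH2 is best known from dividing neural progenitors, EZH1 from neurons that have left the cell cycle, and BMI1 from neural stem cells, where it keeps the cell cycle inhibitor gene Cdkn2a silent.

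In mm10 Ezh1 (11, 101191115 to 101226463), Suz12 (11, 79993106 to 80034123) and Cbx2 (11, 119022962 to 119031270) lie far apart on 1 chromosome, and each of the other 6 has a chromosome of its own. Exons of other annotated genes on the opposite strand cover 2.61% of the exon bases of Ezh2, 6.82% of Eed, 3.60% of Suz12 and 3.83% of Rnf2, and none of those of the other 5. No source used here states the strand setting of the counting, so a small part of those counts is uncertain. Of those overlapping genes, E230029C05Rik beside Eed had 45 to 84 counts per library and Trmt1l beside Rnf2 had 461 to 666. RefSeq promoter windows, taken as the 250 bases before a transcript start on GRCm38.p6, were found for 8 of the 9 genes, in 9 windows. They were rich in CpG, with 12 to 37 CpG pairs and a median of 22, where the median over 32851 such windows of the mouse was 6. An E2F core (GCGGGAA, either strand) was present in 1 of the 9 windows, that of Suz12, and in 3.82% of all windows. A CCAAT box (CCAAT, either strand) stood in 3 of 9 windows, those of Ezh2, Suz12 and 1 of the 2 of Jarid2, and in 33.9% of all. The full cyclic AMP response element, searched on both strands, was in 0 of 9 and in 1.55% of all.

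The NRF1 motif (GCGCA, any base, then GCGC, either strand) was found in 2 of the 9 windows, against 3.74% of all windows, and these 2 belonged to the paralogs Ezh1 and Ezh2. The 30 bases around it are shown, because the same 10 letters, in capitals, stand in front of both genes for the catalytic subunit. Both are on the minus strand and are written 5′ to 3′ as the gene is read.
Ezh1, chr11:101226480-101226509: ccctcagagtGCGCACGCGCacggagggga
Ezh2, chr6:47595176-47595205: cctgtcactcGCGCACGCGCtggtgagcct
The motif began 36 bases before the start of Ezh1 and 165 bases before the start of Ezh2, where 22 of the 30 bases are also annotated as an alternative first exon of Ezh2. The match is one of letters, and the motifs were chosen for this description with no binding data at hand. The NRF1 motif itself holds CpG pairs, of which the member windows had a median of 22 against 6 over all windows. The share of 3.74% is not matched for CpG content.

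All 9 genes were detected in every library, and genes of the same role differed in level. Levels between genes are given in TPM, made from the counts and the length of the annotated exons and scaled to the same total in each library. Over the 8 libraries Bmi1 averaged 104.1 ± 3.88 TPM (SD, n = 8) and Rnf2, the main PRC1 ubiquitin ligase, 98.6 ± 4.33 TPM, and the ranges of this pair overlapped. Suz12, the PRC2 scaffold, followed at 73.7 ± 3.98 TPM, below every value of Rnf2 and above every value of Ezh2. Ezh2 (54.8 ± 4.93 TPM) and Jarid2 (46.2 ± 1.87 TPM), a cofactor that helps PRC2 bind chromatin, overlapped each other and lay above the rest. Ring1 (27.04 ± 3.34 TPM), Ezh1 (26.3 ± 1.44 TPM), Cbx2 (22.5 ± 1.151 TPM) and Eed (22.1 ± 1.62 TPM) each overlapped their neighbour in this order. Bmi1 stood at the 87.2th percentile of the tested genes and Eed at the 45.4th.

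Within the paralog pairs among the members, Ezh2 with Ezh1 and Rnf2 with Ring1, 1 gene dominated in every library. The TPM of Ezh2 was 2.28, 2.49, 1.86 and 2.07 times that of Ezh1 in ICSI-F2 replicates 1 to 4, against 1.77, 2.23, 2.0003 and 2.03 times in control replicates 1 to 4. The mean ratio was 2.17 ± 0.269 in ICSI-F2 brains and 2.01 ± 0.185 in control brains (SD, n = 4 each), and the groups overlapped. Rnf2 exceeded Ring1 3.65 ± 0.279 times in ICSI-F2 and 3.73 ± 0.554 times in control brains. Suz12 exceeded its obligate partner Eed 2.96 to 3.78 times in ICSI-F2 and 3.23 to 3.94 times in control libraries.

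**Figure D1:**
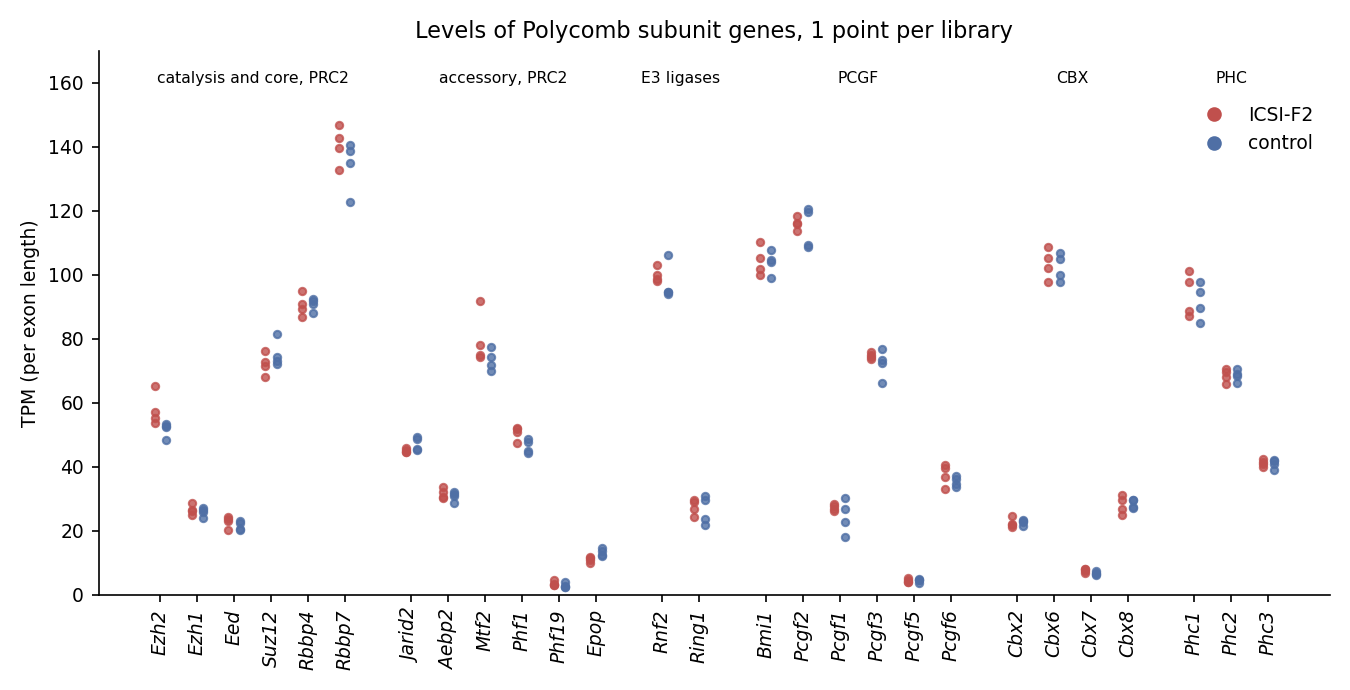
Level in TPM (vertical axis, linear) of Polycomb subunit genes grouped by family, with 1 point per library and ICSI-F2 left of control for each gene. Rnf2, Bmi1, Pcgf2 and Cbx6 lie near 100 TPM in both groups, while Phf19, Pcgf5 and Cbx7 stay under 10 TPM.

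By edgeR's quasi-likelihood test, 0 of the 9 genes passed an adjusted p of 0.05 between ICSI-F2 and control brains. Over all 15565 tested genes 0.00642% passed, a single gene. All 9 members passed the filter on low counts, with 210 to 1565 counts per library. At an unadjusted p under 0.05 there was 1 member, Ezh2, where 7.30% of all tested genes reached that level. In 0 of 9 members did the 4 ICSI-F2 libraries lie apart from the 4 control libraries, which happened for 3.97% of all tested genes. In DESeq2 and in limma the count past an adjusted p of 0.05 was also 0 of 9, and 1 member was under an unadjusted 0.05 in each. Of the members, 5 had a positive and 4 a negative log2 fold change, with a median of 0.026 against 0.00065 over all tested genes. That median was -0.0039 without control replicate 2, 2.8e-05 without control replicate 1 and 0.0049 without control replicate 4. It was 0.0064 without ICSI-F2 replicate 4, 0.011 without ICSI-F2 replicate 2 and 0.014 without ICSI-F2 replicate 3. It was higher, at 0.030, without ICSI-F2 replicate 1 and, at 0.033, without control replicate 3. The sign and size of the median thus rest on single libraries. The 95% interval of the fold change lay wholly within 1.2-fold of no change for 9 of 9 members and for 57.3% of all tested genes.

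**Figure D2:**
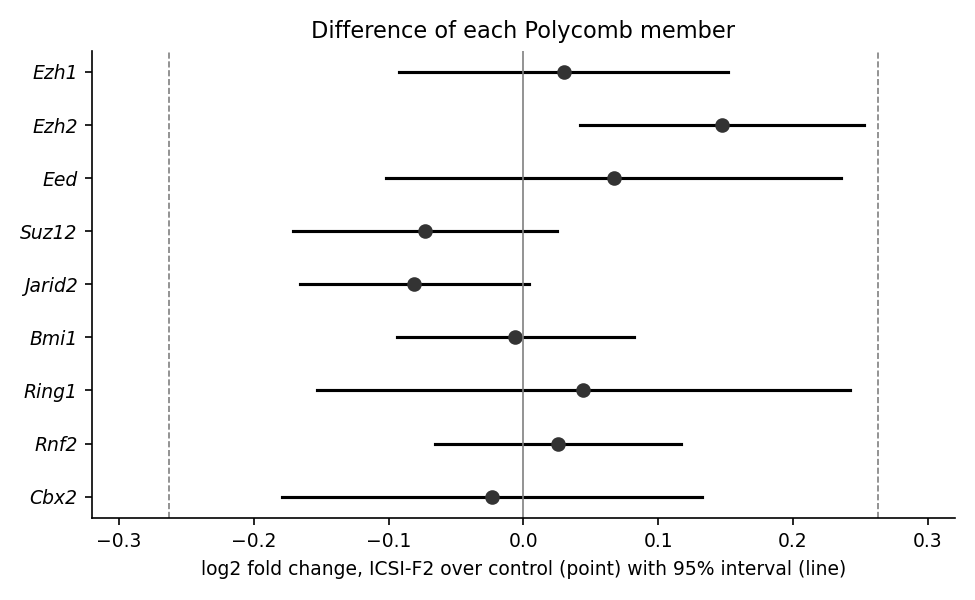
Log2 fold change of ICSI-F2 over control (horizontal axis) for each member, with points for the edgeR estimate, lines for its 95% interval and dashed lines at a 1.2-fold change in either direction. Every line stays between the dashed lines, and only that of Ezh2 leaves out 0.

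Ezh2, the catalytic subunit of dividing progenitors, had the smallest p of the 9. It was measured at 79.7, 90.5, 75.0 and 77.4 CPM (counts scaled to library size) in ICSI-F2 replicates 1 to 4, and at 69.3, 75.3, 73.4 and 73.2 CPM in control replicates 1 to 4. ICSI-F2 replicate 2 was the highest of all, and the groups overlapped by a small margin, with ICSI-F2 replicate 3 just below control replicate 2. The TPM scale instead divides each library by its own total of length-corrected counts. There the same pair stood at 53.7 TPM in ICSI-F2 replicate 3 and 53.4 TPM in control replicate 2. On that scale the groups just parted. The mean was 80.7 ± 6.86 CPM in ICSI-F2 and 72.8 ± 2.56 CPM in control brains (SD, n = 4 each). The fold change was 1.11 (95% interval 1.03 to 1.19), a log2 value of 0.15 (SE 0.05), and the adjusted p was 0.540 in edgeR. Without ICSI-F2 replicate 2 the log2 fold change was 0.089 (edgeR adjusted p = 0.876), the lowest of the 8 runs that left out a library. Without the 2 ICSI-F2 libraries whose sample code carries the letter G it was 0.22 (edgeR adjusted p = 0.794).

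**Figure D3:**
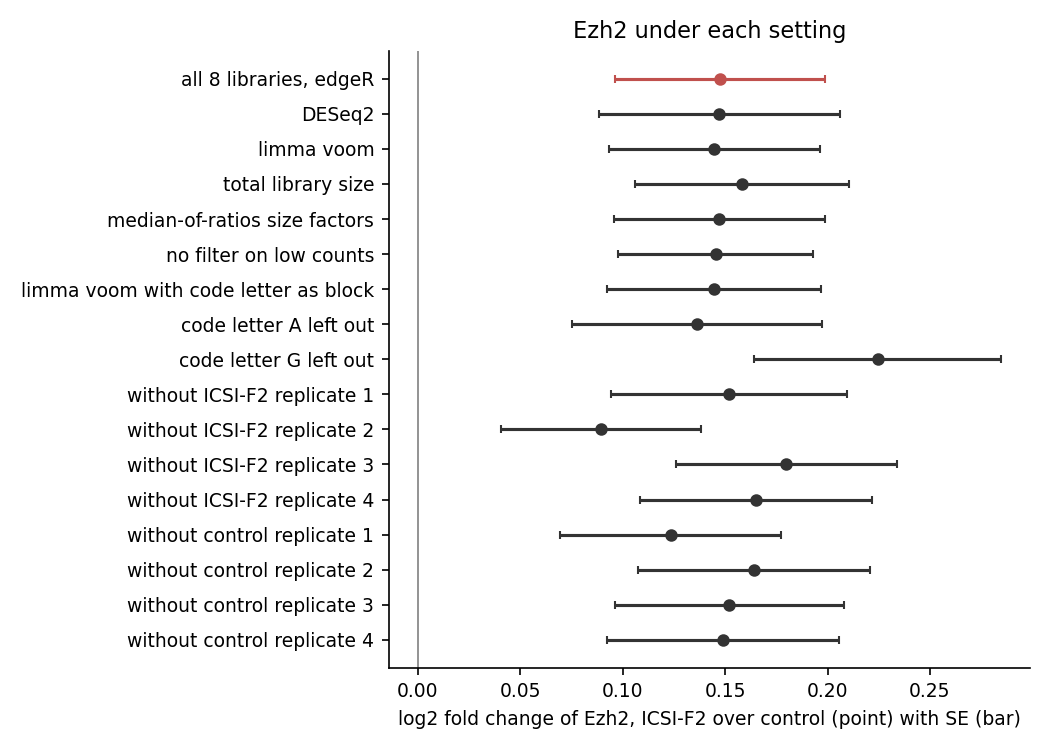
Log2 fold change of Ezh2, ICSI-F2 over control (horizontal axis), under each processing setting (rows), with points for the estimate and bars for its standard error. The estimates run between 0.089 without ICSI-F2 replicate 2 and 0.22 without the code letter G libraries, all above 0.

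Ezh2 is a gene of cycling cells, so 14 genes of the cell cycle were read beside it. Of these, 5 had a positive and 9 a negative log2 fold change, with a median of -0.045. None passed an adjusted p of 0.05 in edgeR. Under an unadjusted 0.05 there was 1, Rrm2, on the negative side (fold change 0.876, edgeR adjusted p = 0.562). The summed level of the 14 genes was 360.5, 362.0, 299.8 and 319.0 CPM in ICSI-F2 replicates 1 to 4. It was 365.6, 354.5, 341.2 and 337.1 CPM in control replicates 1 to 4. The ICSI-F2 libraries with the higher sums, replicates 1 and 2, were also those with more Ezh2, while the 2 controls with similar sums were at 69.3 and 75.3 CPM of Ezh2. Mki67, a marker of cycling cells, was at 71.5 to 98.1 CPM in ICSI-F2 and 84.6 to 99.0 CPM in control brains. Another 10 genes, of radial glia, the progenitors of the newborn brain, summed to 1007 to 1063 CPM in ICSI-F2 and 995 to 1100 CPM in control brains. Of these 10 genes 3 had a positive and 7 a negative log2 fold change, with a median of -0.043. None passed an adjusted p of 0.05 in edgeR. At an unadjusted p under 0.05 there were 2, both on the positive side, Nes (fold change 1.10, edgeR adjusted p = 0.539) and Fabp7 (1.06, edgeR adjusted p = 0.643). Both were above the control median in 4 of 4 ICSI-F2 libraries. As these 2 were picked by their p, this adds nothing to the values of Ezh2. The sum of 11 neuronal markers was lower in all 4 ICSI-F2 libraries than in any control. It was 7872 to 7937 CPM in ICSI-F2 and 8089 to 8177 CPM in control brains. The most abundant genes weigh most in it, with Map2, Dcx and Tubb3 averaging 2341, 1675 and 1337 CPM in ICSI-F2. Their control means were 2373, 1771 and 1404 CPM. Taken singly, the groups lay apart for 1 of the 11, Dcx. In bulk tissue fewer cells of a type and less RNA per cell cannot be told apart, and the part of cell composition in the Ezh2 values was not tested.

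Ezh1, the paralog of mature neurons, was at 39.0, 40.5, 44.8 and 41.6 CPM in ICSI-F2 replicates 1 to 4 and at 43.5, 37.7, 40.9 and 40.2 CPM in control replicates 1 to 4. The groups overlapped widely, at 41.5 ± 2.46 and 40.6 ± 2.38 CPM (SD, n = 4 each; ICSI-F2 and control). The fold change was 1.02 (95% interval 0.938 to 1.11; edgeR adjusted p = 0.948). The sums of neuronal genes, given beside Ezh2, were lower in ICSI-F2 brains. These sums include Dcx, a gene of young neurons, and are not a measure of mature neurons alone. The log2 fold change of Ezh1 was -0.029 when both code letter G libraries were left out.

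Neither PRC2 core partner passed the test, and the groups overlapped for both. Eed, which binds the methyl mark and stimulates the enzyme, was at 19.4, 18.3, 16.1 and 19.0 CPM in ICSI-F2 replicates 1 to 4 and at 16.5, 18.6, 17.9 and 16.5 CPM in control replicates 1 to 4. Its fold change was 1.05 (95% interval 0.932 to 1.18; edgeR adjusted p = 0.901). Suz12 was at 75.5, 69.7, 78.6 and 74.2 CPM in ICSI-F2 replicates 1 to 4 and at 76.4, 77.8, 75.3 and 84.3 CPM in control replicates 1 to 4. ICSI-F2 replicate 2, the highest library for Ezh2, was the lowest for Suz12. The Suz12 fold change was 0.951 (95% interval 0.888 to 1.02; edgeR adjusted p = 0.767).

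Jarid2 had the tightest ICSI-F2 group. It was at 90.5, 92.3, 92.0 and 91.1 CPM in ICSI-F2 replicates 1 to 4, a coefficient of variation of 0.897%, and at 94.9, 101.5, 98.5 and 92.0 CPM in control replicates 1 to 4, one of 4.28%. Counting error alone gives 2.70% for this gene, more than the ICSI-F2 value. All 4 ICSI-F2 libraries were below the control median, and ICSI-F2 replicate 2 overlapped control replicate 4. The fold change was 0.945 (95% interval 0.891 to 1.003; edgeR adjusted p = 0.698), the most negative of the 9.

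Of the PRC1 members, Bmi1, Rnf2 and Cbx2 did not pass and their groups overlapped. Bmi1 was at 84.7, 91.0, 82.9 and 87.9 CPM in ICSI-F2 replicates 1 to 4 and at 84.3, 87.5, 89.1 and 87.0 CPM in control replicates 1 to 4. Its fold change was 0.996 (95% interval 0.937 to 1.06; edgeR adjusted p = 0.986), and its sign changed between settings. Rnf2 was at 85.3, 85.5, 84.6 and 89.5 CPM in ICSI-F2 replicates 1 to 4 and at 83.9, 82.4, 91.1 and 81.1 CPM in control replicates 1 to 4. Control replicate 3 was the highest of these 8, and the fold change was 1.02 (95% interval 0.956 to 1.08; edgeR adjusted p = 0.937). Cbx2, the chromodomain subunit that binds the methyl mark and compacts chromatin, was at 19.5, 19.5, 22.0 and 19.0 CPM in ICSI-F2 replicates 1 to 4 and at 20.7, 21.0, 19.0 and 20.5 CPM in control replicates 1 to 4. Its fold change was 0.984 (95% interval 0.883 to 1.10; edgeR adjusted p = 0.972), and it was positive, at a log2 value of 0.017, without the code letter A libraries.

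Ring1, the second PRC1 ligase, varied most between controls. It was at 18.2, 20.02, 16.5 and 19.8 CPM in ICSI-F2 replicates 1 to 4 and at 16.5, 15.04, 19.9 and 21.0 CPM in control replicates 1 to 4. The low controls were replicates 1 and 2, whose sample codes carry the letter A, and the high ones replicates 3 and 4, with the letter D. The coefficient of variation was 8.68% in ICSI-F2 and 15.6% in control brains, where counting error gives 6.11%. The fold change of Ring1 was 1.03 (95% interval 0.899 to 1.18; edgeR adjusted p = 0.957) with all libraries, and its log2 value was -0.13 (edgeR adjusted p = 0.908) without the code letter A libraries. Those 2 libraries also stood apart in Hox transcripts, given below with the target genes. What the letter stands for is not stated, each letter lies in 1 group, and its part in the Ring1 values was not tested.

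**Figure D4:**
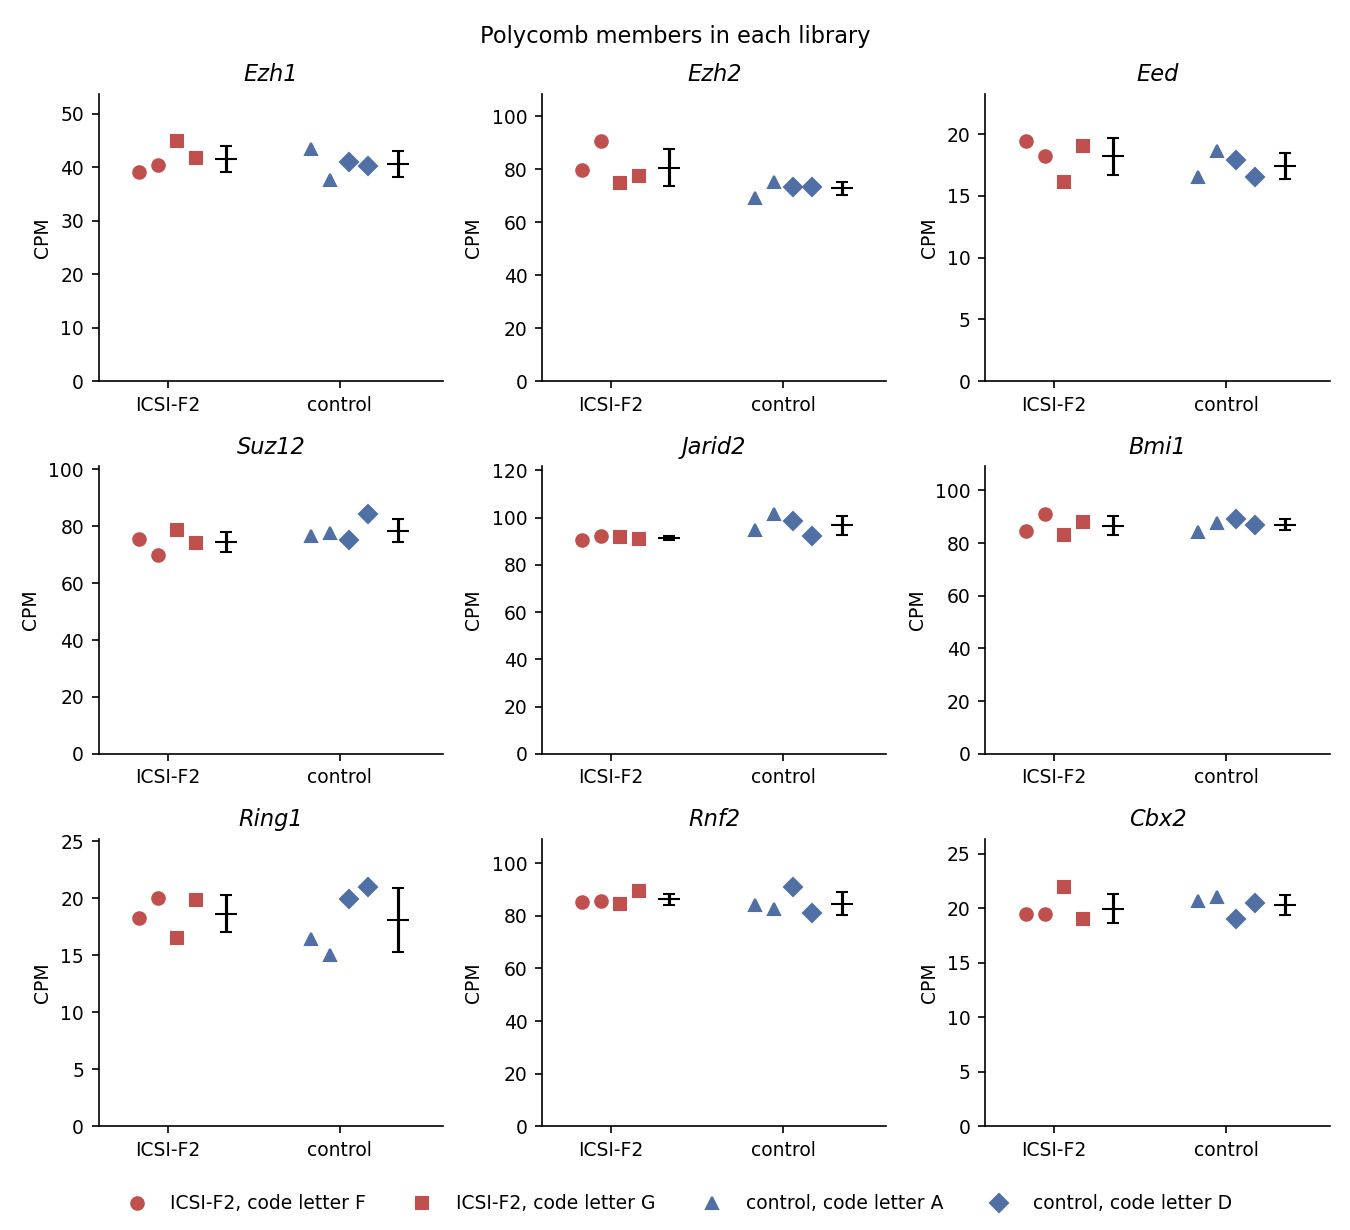
CPM (vertical axes, from 0) of the 9 members in each library, ICSI-F2 left of control, with symbols for the letter in the sample code and a bar for the mean ± SD of each group (n = 4). The groups overlap in all 9 panels, and the 2 code letter A controls are the lowest controls for Ring1.

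The wider Polycomb machinery and its targets were read from 7 further lists. These were drawn up by complex or role, with earlier results of these data known. The first 5 hold other PRC2 and PRC1 subunits, the histone H2A deubiquitinase complex (PR-DUB) and the gene family of the demethylases of the PRC2 mark. In these 5 lists 45 genes were tested. Of them 28 had a positive and 17 a negative log2 fold change, with a median of 0.0088, and 0 passed an adjusted p of 0.05 in edgeR. At an unadjusted p under 0.05 there was 1 of the 45, Mtf2. The groups lay apart for 1 of the 45, Epop. Neither count exceeds the share over all tested genes, 7.30% at that unadjusted p and 3.97% with groups apart. The last 2 lists hold genes known as Polycomb targets, not all of them low in these libraries.

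Among the other PRC2 genes 6 of 8 had a positive log2 fold change, with a median of 0.081. Mtf2, a Polycomb-like protein that brings PRC2 to CpG islands, was at 88.6, 108.7, 89.2 and 93.6 CPM in ICSI-F2 replicates 1 to 4 and at 85.5, 86.4, 91.6 and 88.3 CPM in control replicates 1 to 4. ICSI-F2 replicate 2 was again the highest library, and the log2 fold change was 0.11 (SE 0.05, edgeR adjusted p = 0.682) with all libraries and 0.040 without that one. Epop, which links PRC2 to elongin, was at 5.61, 4.76, 5.29 and 5.70 CPM in ICSI-F2 replicates 1 to 4 and at 6.12, 6.63, 7.05 and 5.85 CPM in control replicates 1 to 4. All 4 ICSI-F2 libraries were thus below all 4 controls, at a log2 fold change of -0.26 (SE 0.13), and the gene did not pass (edgeR adjusted p = 0.695). The histone chaperone subunits Rbbp4 and Rbbp7 stood at -0.018 and 0.055 on the log2 scale.

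Of the other canonical PRC1 subunits 6 of 10 had a positive log2 fold change, with a median of 0.0043. Cbx7 (0.16, edgeR adjusted p = 0.779) and the Sex comb homolog Scmh1 (0.018, edgeR adjusted p = 0.958) had the smallest p-values. By TPM, Cbx6 stood at 102.9, Cbx8 at 28.3, Cbx2 at 22.5 and Cbx7 at 7.14, so Cbx2 was well below Cbx6 and above Cbx7. Bmi1 and its close paralog Pcgf2 were similar, with Bmi1 at 0.861 to 0.950 times Pcgf2 in ICSI-F2 and 0.871 to 0.965 times in control libraries. The PCGF genes of variant PRC1 were lower, with Pcgf3 at 73.4, Pcgf6 at 36.5, Pcgf1 at 25.9 and Pcgf5 at 4.48 TPM.

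In variant PRC1, the forms that do not carry a CBX reader, 10 of 16 genes had a positive log2 fold change and the median was 0.0076. E2f6, a repressor of the E2F family (0.12, edgeR adjusted p = 0.728), and Bcorl1, a corepressor (-0.075, edgeR adjusted p = 0.744), led by p. In PR-DUB, which takes ubiquitin off histone H2A, 3 of 8 were positive, with Mbd5 at 0.077 (edgeR adjusted p = 0.690) and Foxk1 at -0.075 (edgeR adjusted p = 0.722). All 3 genes of the demethylase family were on the positive side. The Y-linked Uty stood at 0.094 (edgeR adjusted p = 0.783), Kdm6b at 0.044 (edgeR adjusted p = 0.796) and Kdm6a at 0.0088. Uty was highest in ICSI-F2 replicate 2, at 53.6 CPM, where the other 3 ICSI-F2 libraries had 41.8 to 46.7 CPM and the controls 41.9 to 47.6 CPM.

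**Figure D5:**
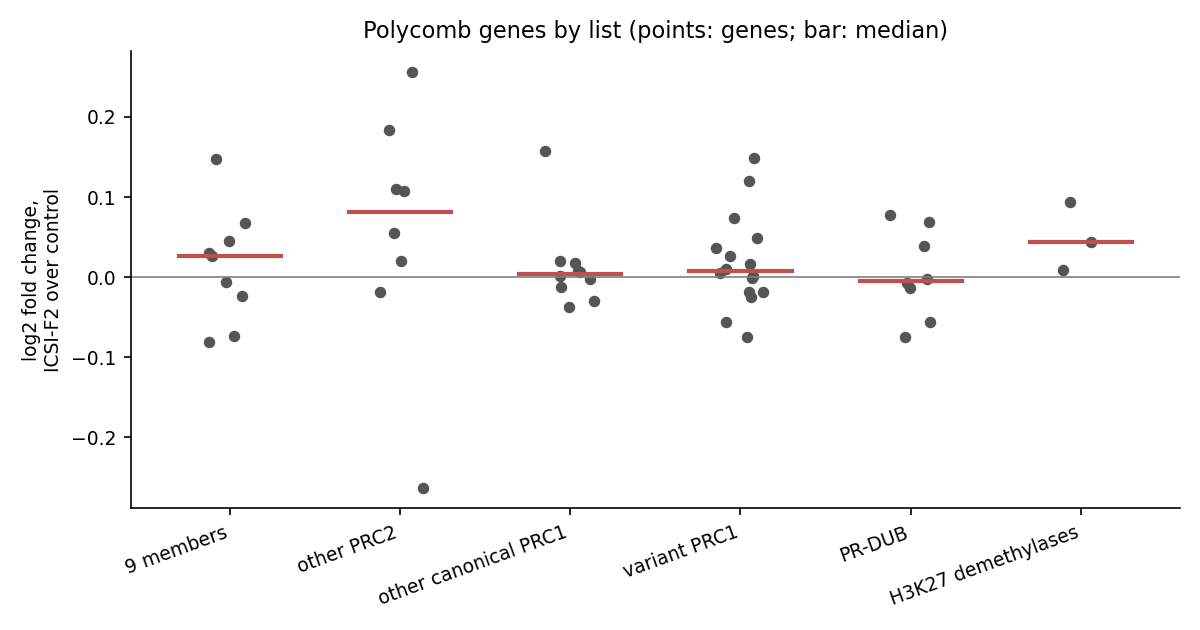
Log2 fold change of ICSI-F2 over control (vertical axis) for every tested gene of the members and of 5 further Polycomb lists, with 1 point per gene and a bar at the list's median. The medians lie between -0.0054 (PR-DUB) and 0.081 (other PRC2), and the lowest point is Epop at -0.26.

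Genes that Polycomb is known to keep silent in many tissues were mostly low. Of 20 such developmental genes outside the Hox clusters, 13 stayed under 1 CPM in every library and 7 were tested. Of the tested ones 2 had a positive and 5 a negative log2 fold change, none passed, and Sox17 (-0.18, edgeR adjusted p = 0.857) and Tbx15 (0.26, edgeR adjusted p = 0.868) had the smallest p-values. Gata3, a transcription factor named after its values were seen, was not low, at 20.1 to 24.2 CPM in ICSI-F2 and 20.3 to 23.3 CPM in control brains (log2 fold change 0.062, edgeR adjusted p = 0.901). Cdkn2a, the classic BMI1 target, had 0 counts in all 4 ICSI-F2 libraries, against 1 count in control replicate 2 and 0 in the other 3 controls. At these depths 0 counts allow a level of up to 0.183 to 0.230 CPM per library, for counting error only.

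Of 39 Hox genes, 15 had no count in any library, and 38 stayed under 1 CPM outside the code letter A controls. Their summed level was 3.66, 0.844, 4.14 and 0.152 CPM in ICSI-F2 replicates 1 to 4, against 99.9, 45.9, 0.126 and 1.08 CPM in control replicates 1 to 4. The 2 high values are the code letter A controls, the libraries with the least Ring1. ICSI-F2 replicate 3 was close to control replicate 1 in Ring1, at 16.55 and 16.46 CPM, with Hox sums of 4.14 and 99.9 CPM. Whether the Ring1 level, the code letter or the part of the brain sampled bears on the Hox values was not tested. Hoxb3, the 1 tested Hox gene, had a log2 fold change of -2.93 (edgeR adjusted p = 0.746) with all libraries and of 2.78 (edgeR adjusted p = 0.942) without the code letter A controls. Cbx2 was also split by letter within the controls, at 20.7 and 21.0 CPM with the letter A and 19.0 and 20.5 CPM with the letter D, while for the other 7 members the letters overlapped among the controls.

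Likeness of pattern was measured as the root mean square difference of log2 CPM over the 8 libraries, after each gene's own mean was taken off. The 3 tested genes most like Ezh2 were Zfp760 (0.018), Serac1 (0.029) and Tmem67 (0.040), where the spread of Ezh2 itself was 0.107. Tmem67 was at 29.0, 34.1, 28.3 and 29.9 CPM in ICSI-F2 replicates 1 to 4 and at 27.2, 27.04, 27.9 and 28.0 CPM in control replicates 1 to 4. Its groups did not overlap, and as it was chosen for its likeness to Ezh2 over these libraries, this adds nothing to the values of Ezh2. For the other members the nearest genes were Atp11a for Ezh1 (0.031), Grb14 for Eed (0.035), Slc4a8 for Suz12 (0.020), Gid4 for Jarid2 (0.022), Top2b for Bmi1 (0.012), Bche for Ring1 (0.055), Nsmce3 for Rnf2 (0.013) and Pdhx for Cbx2 (0.028). No member was the nearest gene of another.

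The libraries held 12968175 to 16551511 counts. Of the 11 neuronal genes behind the sums given beside Ezh2, 3 had a positive and 8 a negative log2 fold change, none passed in edgeR, and 2, both on the negative side, were under an unadjusted 0.05. Dcx, of young neurons, was at 1638 to 1715 CPM in ICSI-F2 and 1749 to 1813 CPM in control brains, with no overlap (fold change 0.946, edgeR adjusted p = 0.531). Liver genes other than Ttr, which the choroid plexus also makes, summed to 18.6 and 37.5 CPM in ICSI-F2 replicates 3 and 4, those of code letter G, and to 0.378 to 0.997 CPM in the other 6 libraries. Meningeal genes, all 8 with a positive log2 fold change, summed to 394.7 to 427.8 CPM in control brains. In ICSI-F2 replicates 1 to 4 they summed to 420.6, 418.0, 561.8 and 549.8 CPM, the higher 2 being those of code letter G. Blood genes summed to 16.2 to 17.6 CPM in ICSI-F2 and 9.28 to 13.8 CPM in control brains, astrocyte genes to 525.8 to 638.8 CPM in ICSI-F2 and 578.2 to 707.3 CPM in control brains, and microglial genes to 50.6 to 61.0 CPM in ICSI-F2 and 49.8 to 53.5 CPM in control brains. The summed level of the 9 members was 511.8 to 527.3 CPM in ICSI-F2 and 506.0 to 525.1 CPM in control brains. The part of these sums in the values of the members was not tested.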

How the data were processed

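The authors deposited unnormalised counts of reads for each gene and library, made with bcl2fastq 2.20, cutadapt 3.4, HISAT2 2.2.1 and HTSeq 2.0.2 on mm10, per the submitters' processing notes. Single reads of 76 bases came from stranded mRNA libraries, per the labels. Groups were taken from sample titles, and replicate numbers follow the order of deposition and pair nothing.

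Counts were tested with edgeR 4.0.16 in R 4.3.3 (filterByExpr, TMM, robust quasi-likelihood F test, group as the only term, Benjamini-Hochberg adjustment over 15565 genes). Fold changes are ICSI-F2 over control. Library sizes scaled by TMM factors of 0.989 to 1.01 gave CPM. TPM used the exon lengths of GENCODE M21, found for 99.6% of gene identifiers. DESeq2 1.42.0, limma 3.58.1 and other settings are compared in the closing section. The test was checked on simulated counts. Members, lists and tests were chosen with earlier results of these data known. The genes named from each Polycomb list are the 2 tested genes with the smallest p, or the 1 tested Hox gene. Genes named from the cell cycle and cell type lists do not follow that rule. Further subunit genes (other CBX, PCGF and RBBP genes, Kdm6a) were named after their values were seen. Promoter sequences are from RefSeq. Totals of 12968175 to 16551511 counts limit precision, and intervals for 0 counts cover counting error only. The values of 1 further subunit gene are not reported here.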

Additional observations from a re-analysis of the deposited data

Results flagged for a closer look

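In 44 groups of 4 libraries, 22 genes in each condition, 3 held a library set far from its 3 fellows, where chance flags about 1 group in 20. Cbx2 stood at 22.0 CPM in ICSI-F2 replicate 3 and at 19.0 to 19.5 CPM in the other 3 ICSI-F2 libraries. Scmh1 stood at 88.1 CPM in ICSI-F2 replicate 1 and at 85.3 to 85.6 CPM in the others of that group. Kdm6b was low in the same library, at 237.8 CPM, where the other 3 ICSI-F2 libraries had 245.1 to 246.2 CPM.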

How the results depend on the processing

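Over 16 alternative settings and the 22 genes named by list, 337 of 352 log2 fold changes kept their sign, 15 changed it and 0 crossed an adjusted p of 0.05. The count of members past the threshold was 0 in every one of these settings. The cause of the sign changes was not tested. With total library size Bmi1 was at 0.0048. Without the code letter A libraries Cbx2 was at 0.017, Ring1 at -0.13, Rnf2 at -2.8e-05, Scmh1 at -0.0021 and Hoxb3 at 2.78. Without the code letter G libraries Bmi1 was at 0.015, Ezh1 at -0.029 and Tbx15 at -0.058. With single libraries left out Bmi1 ran between -0.030 and 0.014, Ezh1 between -0.0087 and 0.066 and Ring1 between -0.034 and 0.12. Over all tested genes the count past the threshold was 1, and it was 4 with DESeq2, 50 with no filter on low counts, 6 without the code letter A libraries and 1 to 9 with single libraries left out. Of the other Polycomb genes 1 passed with no filter on low counts, Hoxa6, named after its values were seen. It had 0 counts in the 4 ICSI-F2 libraries, and 16, 4, 0 and 0 in control replicates 1 to 4. No paired analysis was possible because replicate numbers only follow the order of deposition. With the code letter as a block in limma (correlation 0.028) Ezh2 was at 0.14 (adjusted p = 0.629).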
